A study of Mus musculus with 5 samples.

Results

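The 9 genes described here are those with which a dopaminergic (DAergic) neuron makes dopamine (Th, Ddc and Gch1), stores it in vesicles (Slc18a2), takes it up again (Slc6a3), breaks it down (Maoa, Maob and Aldh1a1) and senses its own release (Drd2). They were chosen by name for these roles, and they are 9 of the 53700 gene IDs in the count table. The values are read counts from BAC-TRAP, a method in which ribosomes that carry an EGFP-tagged ribosomal protein (L10a) are pulled down with an antibody and the mRNA bound to them is sequenced. The question was whether these transcripts differed on ribosomes of midbrain neurons after loss of Esrrg, the gene for the nuclear receptor ERRγ.

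2 genotypes on a C57BL/6 background were compared, L10a;Esrrg WT with 3 libraries (replicates 2, 3 and 4) and L10a;Esrrg Flox with 2 libraries (replicates 2 and 4). Mice of both groups carried the L10a transgene and were injected in the midbrain with AAV:THCre, a virus in which a tyrosine hydroxylase promoter drives Cre, so controls also expressed Cre and the tag. Tissue was taken at an age of 4 months, 1 month after the deletion, and the midbrains of several mice were pooled for each library. Cre turns on the tag in the cells it reaches and, in Flox mice, removes exon 2 of Esrrg in the same cells. Whole midbrain and Cre-negative libraries were not analysed here, so enrichment over the tissue could not be measured, and fewer DAergic neurons in a pool cannot be told apart from less RNA per neuron.

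Dopamine is made from tyrosine. Tyrosine hydroxylase (Th) makes L-DOPA with tetrahydrobiopterin as cofactor, whose synthesis starts with GTP cyclohydrolase (Gch1), and aromatic L-amino acid decarboxylase (Ddc) converts L-DOPA to dopamine. The vesicular monoamine transporter VMAT2 (Slc18a2) loads it into vesicles, the dopamine transporter (Slc6a3) returns released dopamine to the cell, the monoamine oxidases and aldehyde dehydrogenase 1A1 degrade what stays in the cytosol, and D2 autoreceptors (Drd2) dampen firing and release.

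None of the 9 genes passed the test for a difference between Flox and WT. For each of them a fold change of 1.5 or more was rejected in the same libraries (6 of the 9 with scaling on DAergic markers). The same rejection held for 76.8% of the genes whose mean count lay within the range of the 9. Ddc and Slc18a2 lay 17.4% and 13.4% above the WT mean with both Flox libraries above the 3 WT libraries, whereas for Slc6a3 and Drd2 the Flox mean differed by -12.5% and -10.2% with both Flox libraries below. The WT and Flox libraries overlapped for the other 5. Over all genes tested, both Flox libraries lay above all WT libraries in 19.9% and below them in 22.5%. Around these genes, 4 of 52 other pathway genes tested passed, Arrb1, Grk2, Kcnj6 and Slc29a4, all lower in Flox, a share close to the 8.25% over all genes. None of the 4 passed with edgeR, which called 236 of the 16627 genes it tested. Of the 4 only Arrb1 passed when the replicate number was fitted as a block. With scaling on DAergic markers 7 other pathway genes passed, all higher, where 1209 of the 1340 calls over all genes were higher.

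The promoters were searched for the letters that ERRγ, the factor removed in Flox, and other known regulators of DAergic genes recognise. RefSeq windows on GRCm38.p6 from 250 bases before to 50 bases after the start were given for 8 of the 9 genes (10 windows; Maob had none). On either strand, TCAAGGTCA, 1 form of the ERR response element, was in 0 of these 10 windows and in 0.423% of all 32851 windows. Forms with another letter in place of the C were not searched. The shorter half-site AAGGTCA was in 1 of the 10, that of Ddc, and in 4.72% of all windows. The same letters in Ddc, with 1 more A, also make up the Nurr1 element AAAGGTCA, which 1.51% of windows hold. The cAMP response element TGACGTCA was in the windows of Th and Slc18a2 and in 1.79% of all windows. These are matches of letters only. The 2 stretches below, each from the minus strand and written 5′ to 3′, show the only ERR half-site found and the cAMP element of the enzyme that starts the pathway, with the matched letters in capitals.
Ddc promoter, chr11:11898176-11898252, half-site read on the opposite strand 73 to 67 bases before the start: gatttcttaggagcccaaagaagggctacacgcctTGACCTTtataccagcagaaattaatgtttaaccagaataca
Th promoter, chr7:142899998-142900075, cAMP element 45 to 38 bases before the start: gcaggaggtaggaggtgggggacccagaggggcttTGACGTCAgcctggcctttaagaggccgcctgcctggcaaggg

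Libraries held between 20635855 and 23105058 counts assigned to genes, of which the 9 genes took 0.218% to 0.249%. A count of 0 would allow a level of up to 0.130 to 0.145 CPM (3 counts; counting error only), and every one of the 9 genes lay far above that. Esrrg itself had 1763, 1643 and 1726 normalized counts in WT replicates 2, 3 and 4 and 1504 and 1170 in Flox replicates 2 and 4. Both Flox libraries lay below the WT libraries (log2 fold change -0.35, SE 0.13), but the difference did not pass the test (DESeq2 adjusted p = 0.0753). Exons other than the removed one still count, so this checks the label only in part. The difference rested mostly on Flox replicate 4: it was -0.19 without that library (adjusted p = 0.901) and -0.55 without Flox replicate 2 (adjusted p = 0.00582).

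Levels can be set side by side between genes only per length, here as counts per kilobase of annotated exon and scaled to library size (CPM per kilobase). On that scale Th was the most abundant of the 9 in WT, at 217 ± 25.5 (SD, n = 3), and ranked 237 among 17909 protein-coding genes. Slc6a3 followed at 147 ± 3.17, Aldh1a1 at 104 ± 13.7 and Ddc at 79.7 ± 6.55 (SD, n = 3 each). Drd2 (47.7) and Slc18a2 (40.4) came next, well above Maob (13.6), Maoa (11.4) and Gch1 (5.49, rank 6460). The WT libraries of each gene lay above all those of the gene after it, so the order was larger than the spread. It depends on the length used: with the longest coding transcript Aldh1a1 moved up beside Th and Ddc above Slc6a3, with Th and Aldh1a1 overlapping. Slc18a2 (55.75) moved above Drd2 (47.7) without overlap, and Gch1 overlapped Maoa.

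Transcripts of other cells were abundant in the same libraries. On the same scale the astrocyte gene Gfap had a WT mean of 280 and Gad1, which makes GABA, 57.4, against 217 for Th, while Nr4a2, which encodes the DAergic factor Nurr1, had 11.1. Markers of 1 cell type differed widely. The astrocyte genes ran from 12.75 for Slc1a3, with Aqp4 at 31.0, to 498 for Aldoc. The DAergic identity markers ran from 3.47 for Foxa2, with Ret at 39.2, to 54.4 for Slc10a4. Tph2, the serotonin-making enzyme, had 31.6. The defining DAergic transcripts were thus present at high level in every library, in RNA that also held glial, GABAergic and serotonergic transcripts. Ddc, Gch1, Slc18a2 and Maob are used by serotonergic neurons too, and Maob by astrocytes.

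**Figure D1:**
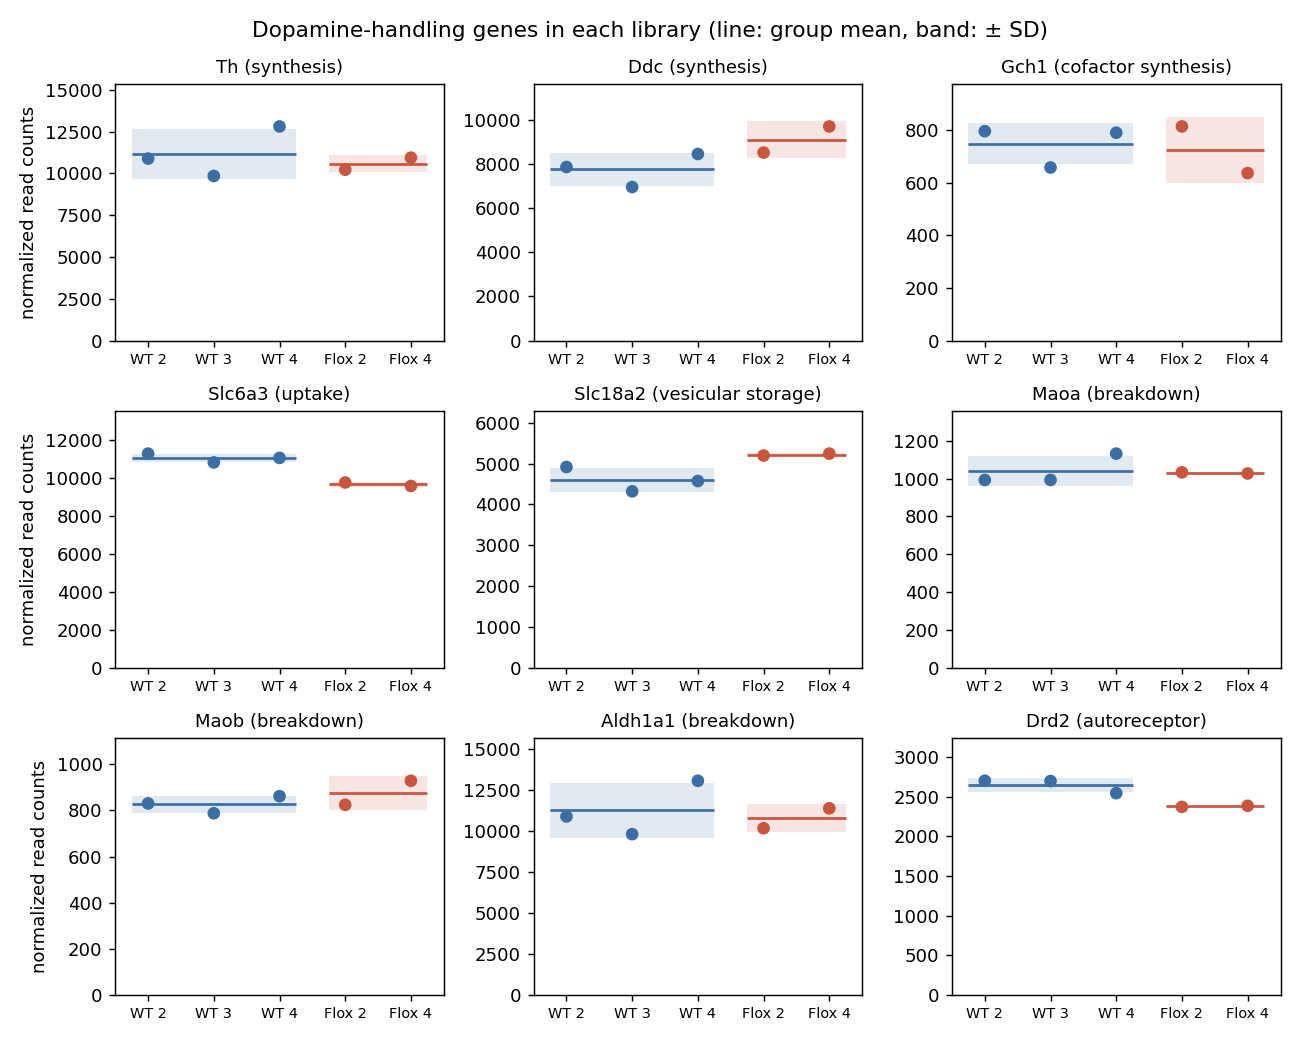
Normalized read counts (vertical axes, each from 0) of the 9 genes in the 3 WT libraries (blue) and the 2 Flox libraries (red). Lines are group means and bands ± SD. Ddc and Slc18a2 have both Flox points above the WT points, Slc6a3 and Drd2 have both below, and the other 5 overlap.

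For synthesis, Th had 10889.5, 9849 and 12813 normalized counts in WT replicates 2, 3 and 4, and 10224 and 10945 in Flox replicates 2 and 4. Both Flox libraries lay within the WT range, and the log2 fold change was -0.08 (SE 0.12, 95% interval -0.32 to 0.16, DESeq2 adjusted p = 0.810). A change of 1.5-fold or more was rejected (adjusted p = 3.7e-04).

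Ddc, the next enzyme, had 7873, 6964 and 8463 normalized counts in WT and 8526 and 9712 in Flox. The lower Flox library exceeded the highest WT library by less than the WT libraries differed among themselves. The log2 fold change of 0.23 (SE 0.12) had an unadjusted p of 0.0486 and an adjusted p of 0.242 (DESeq2). With libraries scaled on the DAergic identity markers alone, Ddc did pass, at 0.40 (adjusted p = 0.0231), and no longer did when Ret, itself lower in Flox, was left out of those markers. That scaling moved all genes together, the median log2 fold change going from -0.02 to 0.14, and relative to this median Ddc was at 0.25 in the DESeq2 fit and 0.26 with the markers.

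Gch1, which supplies the cofactor, had 797, 658 and 791 normalized counts in WT and 815 and 637 in Flox. The highest and the lowest library were both Flox, and the log2 fold change was -0.04 (SE 0.16, adjusted p = 0.930 by DESeq2). The order of its libraries went with the serotonergic transcripts: Tph2 had 2740, 1459 and 1753 in WT and 2622 and 866 in Flox, so that both genes were lowest in Flox replicate 4 and WT replicate 3. The part of serotonergic RNA in the Gch1 values was not tested. Ddc was highest in Flox replicate 4, where the 5 serotonergic markers were lowest in sum (1814, against 2834 to 5180 in the other libraries), and their part in the Ddc values was not tested either.

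For storage, Slc18a2 had 4917, 4321 and 4573 normalized counts in WT and 5198 and 5245 in Flox. The Flox libraries lay close together above all WT libraries, with a log2 fold change of 0.18 (SE 0.10, adjusted p = 0.309 by DESeq2). Slc18a2 shares 111 exonic bases with Gm29261 on the other strand, which strand-blind counts cannot separate, but Gm29261 itself had at most 1 count in any library.

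For uptake, Slc6a3 had 11300.4, 10836 and 11073 normalized counts in WT and 9774.5 and 9593 in Flox. It was the steadiest of the 9 over the WT libraries (coefficient of variation 2.10%), and both Flox libraries lay below them. The log2 fold change was -0.19 (SE 0.088, 95% interval -0.37 to -0.02), with an unadjusted p of 0.0291 and an adjusted p of 0.177 (DESeq2). With scaling on the DAergic markers it was -0.03, and relative to the median of all genes it was -0.17 in both fits.

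For breakdown, Maoa had 992, 993 and 1132 normalized counts in WT and 1033 and 1027 in Flox, with a log2 fold change of -0.01 (SE 0.12). Maob had 830, 788 and 862 in WT and 824 and 929 in Flox, with a log2 fold change of 0.08 (SE 0.13). Both monoamine oxidases overlapped between the groups (adjusted p = 0.977 and 0.805 by DESeq2). Aldh1a1, which marks a ventral group of nigral DAergic neurons, had 10894, 9812.5 and 13072 in WT and 10175 and 11392.5 in Flox. Its log2 fold change was -0.06 (SE 0.13, adjusted p = 0.869 by DESeq2). Its near copy Aldh1a7 had at most 188 normalized counts, and reads that aligned equally well to both genes were not counted.

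For the autoreceptor, Drd2 had 2700.2, 2697 and 2544 normalized counts in WT and 2371 and 2385 in Flox. Both Flox libraries lay below the WT libraries, with a log2 fold change of -0.15 (SE 0.10, adjusted p = 0.410 by DESeq2). With scaling on the DAergic markers it was 0.01, and relative to the median of all genes it was -0.14 there and -0.13 in the DESeq2 fit.

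By count, 0 of the 9 genes passed DESeq2 (2 at unadjusted p under 0.05, Slc6a3 and Ddc) and 0 passed edgeR's quasi-likelihood test (1 unadjusted), where 8.25% of the 15724 genes tested passed DESeq2 in either direction (660 higher, 637 lower). An unadjusted p under 0.05 was found for 3192 of these 15724 genes by DESeq2 and for 3697 of them by edgeR. After adjustment 236 of the 16627 genes tested by edgeR passed. The median log2 fold change of the 9 was -0.04, against -0.01 over all genes tested, and the median size without sign was 0.08 against 0.19. Flox lay above all WT libraries in 2 of the 9, with 19.9% of all genes tested doing so, and below in 2 of the 9, with 22.5% of all genes. These shares are close to the background, so the separations of Ddc, Slc18a2, Slc6a3 and Drd2 are not more frequent than among genes at large. A fold change of 1.5 or more was rejected for 9 of 9 (DESeq2 adjusted p from 6.2e-05 for Maoa to 0.00827 for Ddc), with 24.0% of all 29407 genes with a count and 76.8% of the 5437 genes whose mean count lay within the range of the 9. The interval of each gene left room for differences of up to 1.38-fold, the upper bound of Ddc.

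**Figure D2:**
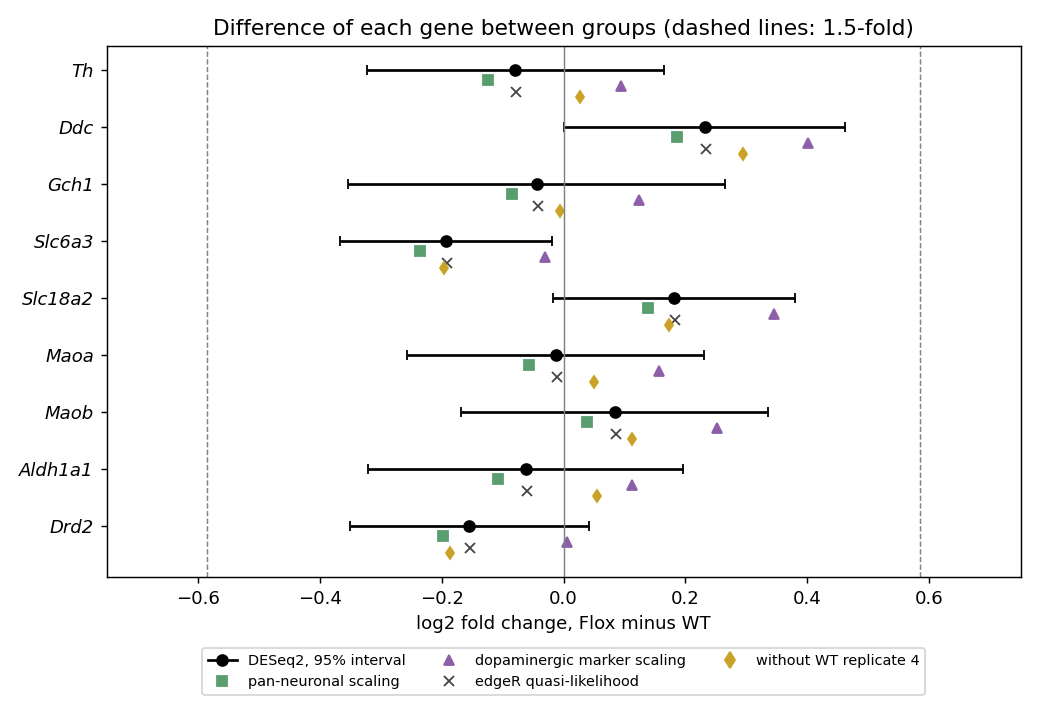
Log2 fold change of Flox against WT for each of the 9 genes. Black points are DESeq2 estimates with 95% intervals, coloured symbols are 4 other settings, and dashed lines mark 1.5-fold. All black intervals stay inside the dashed lines, those of Slc6a3 and Ddc just miss 0, and scaling on DAergic markers moves every gene to the right by a similar amount, as it does the median of all genes.

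Ratios between 2 of the genes within a library do not depend on scaling. Flox and WT libraries did not overlap in 16 of the 36 pairs (44.4%). How often ratios between genes at large separate was not computed, so this share has no background of its own. Among the counts of single genes, an unlike measure, 19.9% lay above and 22.5% below. Pairs that share a gene are not independent. Ddc and Slc18a2 were higher in Flox relative to Th, Aldh1a1, Maoa, Slc6a3 and Drd2. Slc6a3 was lower relative to Maoa and Maob as well, and in the other 4 pairs Ddc was higher relative to Maob, and Maob relative to Th, Aldh1a1 and Drd2. With 3 against 2 libraries no exact permutation test can go below p = 0.1, so none was run.

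The ratio of Ddc to Slc6a3 counts was 0.697, 0.643 and 0.764 in WT replicates 2, 3 and 4 and 0.872 and 1.01 in Flox replicates 2 and 4, a mean 34.4% higher and the largest difference of the 36 pairs on the log2 scale. The ratio of Slc6a3 to Slc18a2, uptake against storage, was 2.30, 2.51 and 2.42 in WT and 1.88 and 1.83 in Flox (-23.0% in the mean). The groups lay further apart than the libraries within either group. The ratio of Th to Ddc, the 2 steps of synthesis, was 1.38, 1.41 and 1.51 in WT and 1.20 and 1.13 in Flox (-19.1% in the mean).

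Other pairs differed little between the groups. The ratio of Th to Aldh1a1 stayed between 0.961 and 1.005 in all 5 libraries, while both genes ranged widely in their own counts. Slc6a3 to Drd2 stayed between 4.02 and 4.35. Ddc to Slc18a2 varied from 1.60 to 1.85 within WT, with 1.64 and 1.85 in Flox. Over the 5 libraries the root mean square difference in centred log2 counts was 0.025 for Th and Aldh1a1 and 0.043 for Slc6a3 and Drd2, the 2 smallest of all pairs. Among 11522 genes with a mean of at least 100 normalized counts, those closest to Th were Dctd (0.021), Bmp1 (0.022) and Mthfd1 (0.022).

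**Figure D3:**
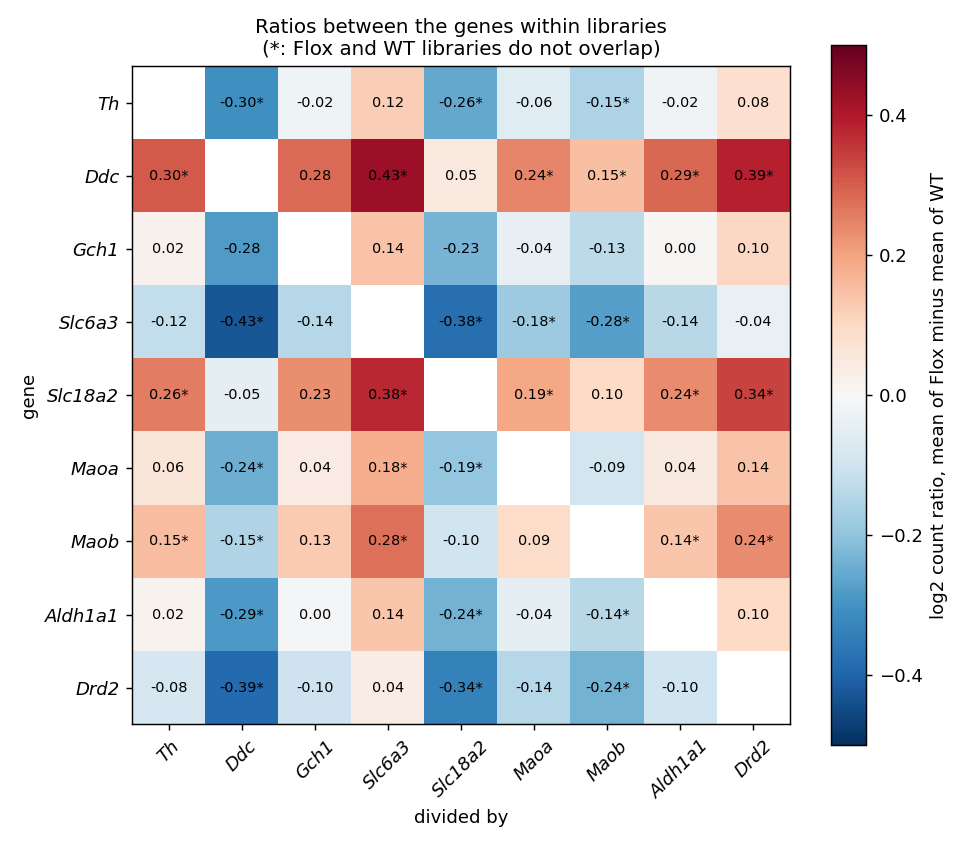
Change in the ratio of raw counts of each gene (rows) to each other gene (columns), as mean log2 ratio of the Flox libraries minus that of the WT libraries. Stars mark the pairs whose Flox and WT libraries do not overlap (16 of 36), and the rows of Ddc and Slc18a2 are mostly positive while that of Slc6a3 is negative throughout.

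The libraries themselves varied in composition. Th and Aldh1a1 were highest in WT replicate 4, at 0.20 and 0.23 above the WT mean on the log2 scale, and lowest in WT replicate 3. The 10 DAergic identity markers summed to 14726.5, 13976 and 15779 normalized counts in WT and 12901 and 12477 in Flox. WT replicate 4 was highest in this sum too, and both Flox libraries were lowest. Ret was the largest part of the sum, with 5699, 5483.5 and 6156 in WT and 4440 and 4312.5 in Flox. Both Flox libraries lay below all WT libraries in 4 of the 10 markers, with 22.5% of all genes doing so. All 10 had a negative log2 fold change (median -0.17), but 1 of 10 passed, the growth factor receptor gene Ret (-0.40, SE 0.10, DESeq2 adjusted p = 0.00291), with 8.25% of all genes passing.

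Astrocyte markers (9 genes) were also highest in sum in WT replicate 4, at 109197 against 74828 to 102553 in the other libraries, and oligodendrocyte markers (7 genes) at 97032 against 61300.4 to 84120. None of the 9 astrocyte and 7 oligodendrocyte genes passed (DESeq2; 1 astrocyte gene at unadjusted p under 0.05), and none by edgeR (also 1 astrocyte gene unadjusted). Of 12 microglial markers 10 were higher in Flox by DESeq2 and 6 by edgeR, with sums of 2441, 2931 and 1545 in WT and 5212 and 11162 in Flox. Of 8 endothelial markers 3 were higher by DESeq2 and 0 by edgeR (5 at unadjusted p under 0.05). Of 6 GABAergic markers 1 was higher by DESeq2 (Sst, 0.54, adjusted p = 0.0157) and 1 lower (Gad2, -0.35, adjusted p = 0.0302). None of the 6 passed edgeR, and 8.25% of all genes passed DESeq2. Gad1 had -0.28 (DESeq2 adjusted p = 0.0520), with both Flox libraries below the WT libraries. The part of these cells in the values of the 9 genes and of the other pathway genes was not tested. Without WT replicate 4 the log2 fold changes of Th, Aldh1a1 and Maoa were 0.03, 0.06 and 0.05, on the other side of 0, and the 4 separated genes kept their direction.

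**Figure D4:**
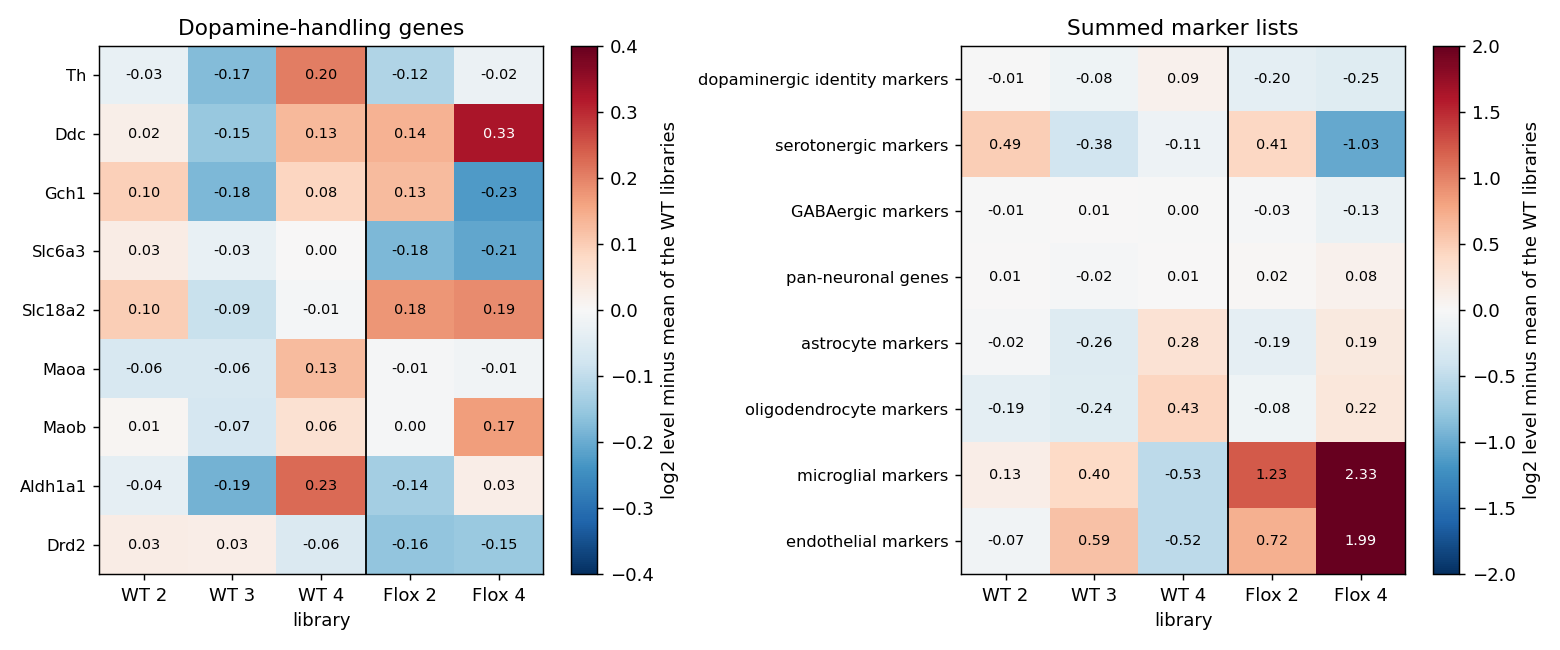
Level of the 9 genes (left) and summed level of 8 marker lists (right) in each library, as log2 normalized counts minus the mean of the WT libraries. The 2 colour scales differ. WT replicate 4 is high for Th and Aldh1a1 and for astrocyte and oligodendrocyte markers. Both Flox libraries are high for microglial markers and low for the sum of DAergic markers, of which Ret is the largest part.

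Of 57 other genes of monoamine handling, 52 were tested, 0 were higher and 4 were lower in Flox (DESeq2), close to the 8.25% over all genes. For the unadjusted counts that follow, 3192 of all 15724 genes tested had an unadjusted p under 0.05 by DESeq2 and 3697 by edgeR. Among 12 genes of the tetrahydrobiopterin cycle and partners of tyrosine hydroxylase, 0 passed DESeq2 or edgeR (2 at unadjusted p under 0.05 by DESeq2). Those 2 were Pcbd1, which recycles the cofactor (log2 fold change 0.27, SE 0.11, adjusted p = 0.103), and Dnajc12, a co-chaperone of the aromatic amino acid hydroxylases (0.27, SE 0.13, adjusted p = 0.174). Pts, Spr and Qdpr, which complete and recycle the cofactor, had log2 fold changes of 0.17, 0.17 and 0.26 with overlapping libraries. Gchfr, the feedback regulator of Gch1, had -0.15 (SE 0.28).

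Of 6 partners of the transporters, 0 passed DESeq2 or edgeR (3 at unadjusted p under 0.05 by either). Pick1, a scaffold that binds the dopamine transporter, had 0.40 (adjusted p = 0.0737), and Sv2c, a vesicle protein of DAergic terminals, had -0.26 (adjusted p = 0.175).

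Of 10 other enzymes of breakdown, 0 passed DESeq2 or edgeR (3 at unadjusted p under 0.05 by DESeq2). Aldh2, the mitochondrial aldehyde dehydrogenase, had -0.02 (SE 0.11), with overlapping libraries. Sult1a1, a sulfotransferase, had 0.95 (SE 0.37) at fewer than 110 normalized counts in any library. The genes for the other dopamine receptors, Drd1, Drd3, Drd4 and Drd5, had means of at most 51.5 normalized counts, so Drd2 made up nearly all dopamine receptor counts, and 0 of the 3 that were tested passed (DESeq2, 0 unadjusted; edgeR 0).

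Of 14 genes that act with or on the D2 autoreceptor, 3 were lower by DESeq2 (8.25% of all genes passed) and 0 passed edgeR (5 at unadjusted p under 0.05). Grk2, the receptor kinase that starts its desensitisation, had 4487, 4531 and 4325 normalized counts in WT and 3716 and 3344 in Flox, a log2 difference of -0.33 ± 0.10 (SE; DESeq2 adjusted p = 0.0191). Arrb1, the arrestin that follows, had 6456, 6167 and 6648 in WT and 5303 and 4676 in Flox (-0.36, SE 0.10, adjusted p = 0.0108). Both genes lay well below the WT range in each Flox library.

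Kcnj6 (GIRK2), a potassium channel subunit opened by D2 receptors, had 71.6, 86.6 and 88.4 normalized counts in WT and 44.2 and 38.8 in Flox, a log2 difference of -0.99 ± 0.33 (SE; DESeq2 adjusted p = 0.0419). Kcnj9 (GIRK3) had -0.32 (adjusted p = 0.0829) and Kcnj3 (GIRK1) -0.20 (adjusted p = 0.394). Flox lay below all WT libraries in 8 of the 14 genes and above in 0, with 22.5% and 19.9% of all genes doing so. The G protein genes Gnao1, Gnai1, Gnai2 and Gnai3 overlapped between the groups, with log2 fold changes from -0.08 to 0.07, and Arrb2 did so at 0.02.

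Of 11 genes of other monoamine systems, 7 were tested and 1 was lower. Slc29a4, the plasma membrane monoamine transporter (PMAT), a low-affinity route of dopamine uptake, had 1130, 1033 and 1024 normalized counts in WT and 812 and 703 in Flox, a log2 difference of -0.49 ± 0.13 (SE; DESeq2 adjusted p = 0.00585). Both Flox libraries lay below the WT libraries, as in 22.5% of all genes tested. They did so too for Slc6a3, the high-affinity route, which did not pass (DESeq2 adjusted p = 0.177).

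The 4 calls depended on the tool, on single libraries and on whether the replicate number was fitted as a block. With that block Arrb1 kept its call (DESeq2 adjusted p = 0.0484). Grk2 (0.156) and Slc29a4 (0.0874) lost it, and Kcnj6 had no adjusted p. With edgeR 0 of the 57 passed (16 at unadjusted p under 0.05), where 236 of all 16627 genes did, and the 4 had edgeR adjusted p from 0.0560 to 0.0758. All 4 lost the call when WT replicate 2 or WT replicate 3 was left out. Without WT replicate 4 Kcnj6 was filtered out and had no adjusted p (-0.93). Without Flox replicate 4, which leaves 1 Flox library, Grk2, Arrb1, Slc29a4 and Kcnj6 were at -0.26, -0.28, -0.39 and -0.90. Scaling on the DAergic markers ended the 4 lower calls (-0.82 for Kcnj6, -0.17 for Grk2, -0.20 for Arrb1 and -0.33 for Slc29a4). Relative to the median of all genes they were at -0.96, -0.32, -0.34 and -0.47, against -0.97, -0.31, -0.34 and -0.47 in the DESeq2 fit. A change of scaling shifts all genes nearly alike, so these values cannot show which scaling is right.

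**Figure D5:**
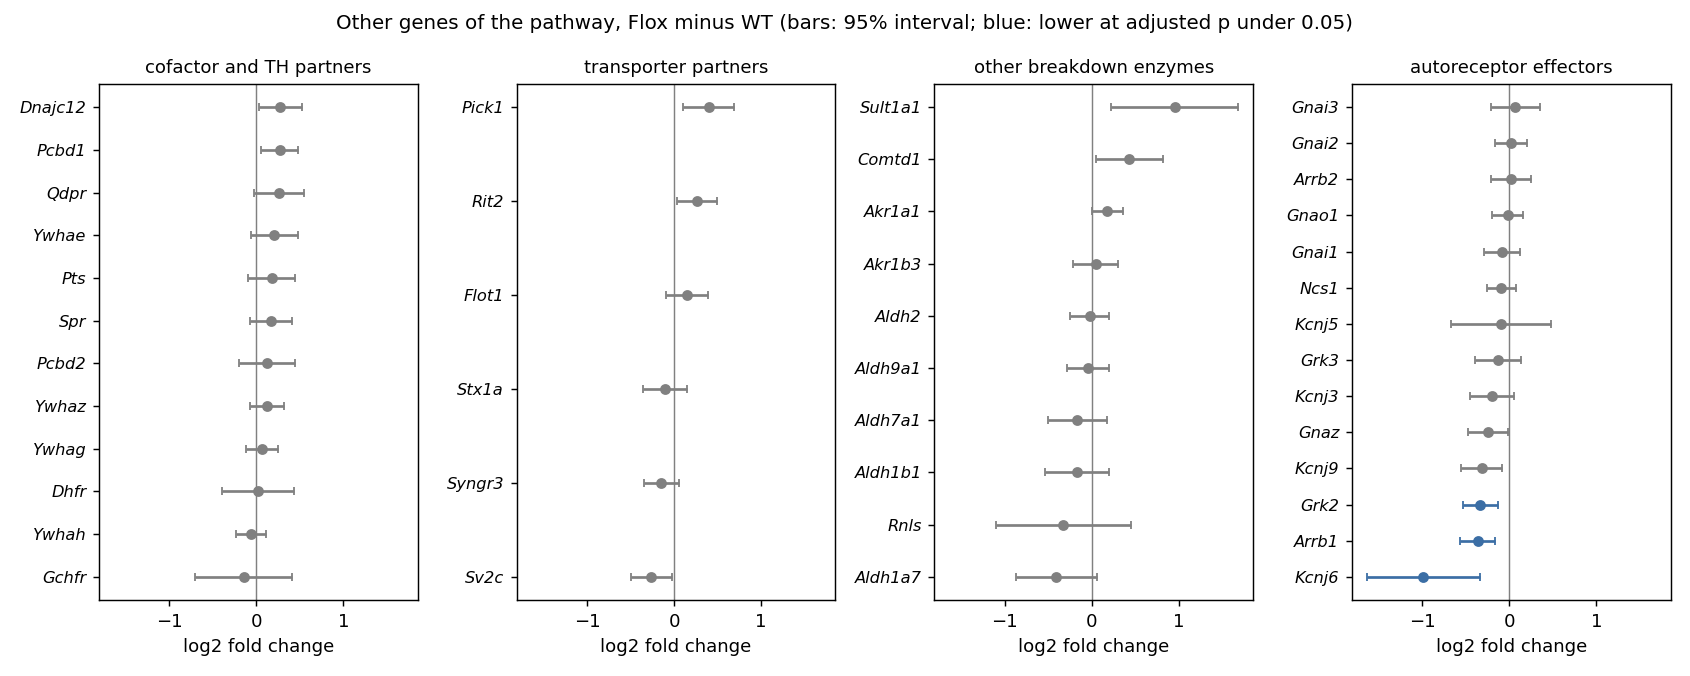
Log2 fold change of Flox against WT, with 95% intervals, for 42 genes of 4 pathway lists. Blue marks genes lower at a DESeq2 adjusted p under 0.05, here Grk2, Arrb1 and Kcnj6, and no gene shown was higher.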

How the data were processed

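Per the methods and labels, the authors sequenced poly(A)-selected, non-strand-specific libraries, trimmed reads (Trim Galore 0.6.6), aligned them with STAR and assigned them to genes with HTSeq-count. The submitters' processing notes give STAR 2.7.9a, HTSeq 0.11.3 and GRCm39, and the methods other versions and GRCm38, so no coordinates are given for the genes counted, only those of RefSeq promoter windows on their own build. The deposited counts are raw. Reads assigned to no single gene (12.6% to 14.3% of each library) were left out. Names came from GENCODE M21 (52093 of 53700 IDs). Promoter windows came from RefSeq (GRCm38.p6).

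Counts of all 29407 genes with at least 1 count were fitted with DESeq2 1.42.0 in R 4.3.3 (two-sided Wald test, 3 WT against 2 Flox libraries, Benjamini-Hochberg adjustment over all genes tested, threshold 0.05). The study used the same tool with a fold-change cutoff as well. Intervals are 1.96 SE. A second Wald test asked whether the fold change was under 1.5. The script was tested on simulated data. Alternatives were edgeR 4.0.16 (quasi-likelihood), TMM, pan-neuronal or DAergic marker scaling, a filter (10 counts in 2 libraries), a replicate block and leaving out each library. No 2 libraries of the same group agreed within counting noise. Libraries are separate pools of mice as far as the labels tell, and p-values measure only the spread between these libraries. DESeq2 assumes that a group left with 1 library varies like the other.

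The members, lists and tests were chosen with earlier results of these data known. Some genes of the lists are not reported here and were left out of their counts and sums. Named were the 9 genes, Esrrg, pathway genes that passed, up to 12 others by role and the 3 genes closest to Th. Marker genes serve as examples, and pathway genes named beyond that number were chosen after their values were seen.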

Additional observations from a re-analysis of the deposited data

How the results depend on the processing

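The 9 genes gave 0 calls under every alternative but one: with scaling on the DAergic markers 1 passed (Ddc), and without Ret, an alternative chosen after seeing the data, 0 did. The count of genes shown to differ by under 1.5-fold was 9, and 6 to 9 over the alternatives it was run under. DAergic marker scaling turned the direction of Th (0.095), Gch1 (0.12), Maoa (0.16), Aldh1a1 (0.11) and Drd2 (0.0058), and without Ret that of Th (0.048), Gch1 (0.078), Maoa (0.11) and Aldh1a1 (0.066). It moved the median of all genes with a mean of at least 50 counts to 0.14 from -0.02, a shift common to all genes: relative to the median each of the 9 moved by at most 0.011. Leaving out 1 library gave -0.16 to 0.026 for Th, -0.23 to 0.12 for Gch1, -0.047 to 0.050 for Maoa, -0.15 to 0.055 for Aldh1a1 and -0.0078 to 0.17 for Maob, and kept the direction of Ddc, Slc18a2, Slc6a3 and Drd2. Over all genes 1297 passed, 500 with a fold change of at least 1.5 as well, 236 by edgeR, and 72 (without Flox replicate 4) to 1585 (without Flox replicate 2) without 1 library. The split was 660 higher and 637 lower, 469 and 781 with pan-neuronal scaling, 1209 and 131 with DAergic markers, and 791 and 144 without Ret. Of the pathway genes 4 passed, 7 with DAergic markers (all higher), 1 without Ret, 0 by edgeR (16 at unadjusted p under 0.05), and 0 to 5 without 1 library. Esrrg passed with pan-neuronal scaling (-0.40, adjusted p = 0.0483) and ranged from -0.55 to -0.19 without 1 library. The cause of these changes was not tested. Numbers 2 and 4 occur in both groups, and the fit without a block took same-numbered libraries to share only a number. Same-numbered libraries deviated together weakly (r = 0.15 and 0.107 over genes). With 2 Flox libraries the deviations of 1 mirror those of the other, so these values cannot show whether the libraries are pairs. Noradrenergic and serotonergic transcripts were highest in both libraries numbered 2 (given below), and what the number stands for was not tested. With the replicate block 476 genes, 0 of the 9 and 2 pathway genes passed, Hdc (higher) and Arrb1 (lower, adjusted p = 0.0484). The calls of Grk2 and Slc29a4 were lost, and Kcnj6 was filtered out and had no adjusted p (-0.94).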

Other observations

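Noradrenergic transcripts were found mainly in the 2 libraries numbered 2: Dbh, which makes noradrenaline from dopamine, had 99.0 and 75.9 normalized counts in WT and Flox replicate 2 and at most 8.15 in the other libraries, and the noradrenaline transporter gene Slc6a2 had 104 and 68.2 against at most 9.17. The 4 noradrenergic markers summed to 232 and 177 in these libraries and to 9.61 to 22.4 in the others. The serotonergic markers were highest in the same 2 libraries (5180 and 4922, against 1814 to 3435), with the serotonin transporter gene Slc6a4 at 1273 and 1207 there and 360 to 683 elsewhere. Noradrenergic neurons also express Th, and their part in the Th values was not tested.

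Hdc, which makes histamine, had 390, 589 and 254 normalized counts in WT and 667 and 666 in Flox, above all WT libraries without passing the test (log2 fold change 0.70, SE 0.44, DESeq2 adjusted p = 0.390); it passed with the replicate block (1.08, adjusted p = 0.00152).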
